A study of Mus musculus with 27 samples.

Results

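Irradiation of the mouse thorax was followed, 24 h later, by higher lung transcript levels of a mixed set of metabolic, stress and regulatory genes. The set comprised the enzyme genes Ces2e, Ephx1 and Dcxr, the ribosomal protein paralogue Rps27l, the cell survival gene Ddias, the RNA-binding protein gene Celf5, the secreted stress hormone gene Gdf15 and the long noncoding RNA gene 9230114K14Rik. These 8 genes had been chosen for their rises after irradiation in the same arrays, so the rises are given as a description and carry no test. Of the 8 genes, 7 were measured among 18194 genes with a probe set. Gdf15 had no probe set under its symbol in the annotation used and was not analysed here. The tests below concern comparisons other than irradiated against sham. They are the step from 12.5 to 15 Gy, the level in sham lungs of different strains, and the difference between strains in the size of the rise. They use the arrays on which the choice rested, so they are not wholly independent of it, least of all the difference in rise.

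Lung RNA came from female mice of the inbred strains C57L/J, C57BL/6J and CBA/J, aged 10 to 12 weeks at irradiation, with 3 mice in each of 9 groups of strain and dose. They received 0 Gy (sham), 12.5 Gy or 15 Gy of X-rays to the whole thorax with the head, abdomen and forelimbs shielded. RNA of the right upper lobe was hybridised to 27 Affymetrix mouse arrays, 1 per unpooled sample. All values below are log2 intensities of the brightest probe set of a gene, with errors as SD of 3 arrays or SE of a difference, and levels of different genes are not compared. In RNA of whole tissue, fewer cells of a type and less RNA per cell cannot be told apart.

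The defining markers of lung were present on every array (surfactant protein C, Sftpc, 14.23 to 14.93; the club cell secretory protein, Scgb1a1, 14.62 to 15.28). On 9 of the 27 arrays the mean of 12 skeletal muscle markers lay 2.46 to 8.39 above the median array, against at most 0.21 on the other 18. These were CBA/J sham replicates 1 and 2, CBA/J 12.5 Gy replicates 2 and 3, C57BL/6J 12.5 Gy replicates 1 and 2, C57BL/6J 15 Gy replicates 2 and 3, and C57L/J 15 Gy replicate 3. No such array lay in the sham groups of C57L/J and C57BL/6J, in C57L/J at 12.5 Gy or in CBA/J at 15 Gy. For the 7 genes the differences are given with and without these arrays. Without them 4 groups hold 1 array each (CBA/J sham and 12.5 Gy, C57BL/6J 12.5 and 15 Gy), whose spread the tests take from the other groups.

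Ionising radiation breaks DNA, and the damage stabilises the transcription factor p53, which switches on genes for arrest, repair and death. It also oxidises lipids and proteins, and the factor NRF2 answers such stress by raising detoxifying and antioxidant enzymes. Ephx1 and Ces2e belong to the detoxifying enzymes of the endoplasmic reticulum, which in the lung are prominent in airway epithelium. Ephx1 encodes microsomal epoxide hydrolase, which opens reactive epoxides to diols, and Ces2e encodes a carboxylesterase, which splits esters and amides of drugs and lipids. Dcxr encodes dicarbonyl/L-xylulose reductase, an enzyme of the glucuronate pathway that also reduces dicarbonyls. Rps27l encodes a near copy of ribosomal protein S27 and is a known p53 target. The product of Ddias suppresses apoptosis after DNA damage, and Celf5 belongs to the CELF family of splicing and translation regulators, best known from the nervous system.

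The promoters of the measured genes were searched for short motifs of these factors, because several of the genes are held to be p53 targets. RefSeq lists 11 start windows for 6 of the 7 genes, each 300 bases long from 250 before to 50 after the start (build GRCm38.p6), with 5 windows for Celf5, 2 for Rps27l and 1 for each of the others. 9230114K14Rik has none listed. The p53 half-site consensus, searched on both strands, was found in 2 of the 11 windows and in 8.36% of all 32851 windows listed. One window was that of Rps27l, with matches starting at positions -210 and -107 from the start, and the other that of Celf5, with a match starting at position -182. The Rps27l window belongs to a start 327 bases downstream of the other Rps27l start. The letters TGACNNNGC of the NRF2 element were found in 0 of the 11 windows and in 12.4% of all. TATAAA was found in 1 of the 11, that of Ephx1 with a match starting at position -214, and in 13.6% of all. CCAAT was found in 5 of the 11 and in 37.4% of all, both motifs searched on either strand. A match is a string of letters and was not tested for binding, and the search covers only these windows. The 250 bases before the start are given here for the 2 windows with a half-site, whose letters are in capitals, and for Ces2e, the enzyme with the largest rise, whose window held none. The stretches are chr9:66946163-66946412 (plus strand) for Rps27l, chr10:81482700-81482949 (minus strand) for Celf5 and chr8:104926010-104926259 (plus strand) for Ces2e.
Rps27l: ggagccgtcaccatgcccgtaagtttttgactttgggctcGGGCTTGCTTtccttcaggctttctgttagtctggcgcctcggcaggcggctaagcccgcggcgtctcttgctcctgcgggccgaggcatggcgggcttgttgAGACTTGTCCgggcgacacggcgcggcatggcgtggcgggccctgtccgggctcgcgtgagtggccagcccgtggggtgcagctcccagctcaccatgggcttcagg
Celf5: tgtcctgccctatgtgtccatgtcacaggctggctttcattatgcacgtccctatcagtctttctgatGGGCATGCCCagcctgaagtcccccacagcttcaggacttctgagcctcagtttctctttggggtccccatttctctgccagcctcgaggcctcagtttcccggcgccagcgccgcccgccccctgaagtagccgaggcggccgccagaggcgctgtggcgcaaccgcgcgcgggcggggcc
Ces2e: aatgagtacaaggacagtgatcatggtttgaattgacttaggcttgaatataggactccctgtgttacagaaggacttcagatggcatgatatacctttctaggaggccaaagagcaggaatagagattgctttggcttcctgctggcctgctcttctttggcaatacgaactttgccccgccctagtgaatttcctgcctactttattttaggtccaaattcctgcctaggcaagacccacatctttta

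All 7 measured genes were higher after irradiation in every strain and at both doses. For 6 of the 7, all 18 irradiated arrays lay above all 9 sham arrays, a pattern that 0.264% of all 18194 genes showed. Dcxr was the exception, with 17 of its 18 irradiated arrays above all sham arrays. In the single comparisons of a dose with sham, irradiated arrays all above sham arrays were found for all 7 genes in 5 of the 6 comparisons and for 6 of the 7 in C57L/J at 15 Gy. The background for a rise without overlap was 9.78% and 7.61% of genes in C57L/J at 12.5 and 15 Gy, 6.82% and 8.92% in C57BL/6J, and 7.56% and 11.8% in CBA/J, and 0.5% of genes rose without overlap in all 6. Since the genes were chosen on these contrasts, nothing is read from the counts.

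**Figure D1:**
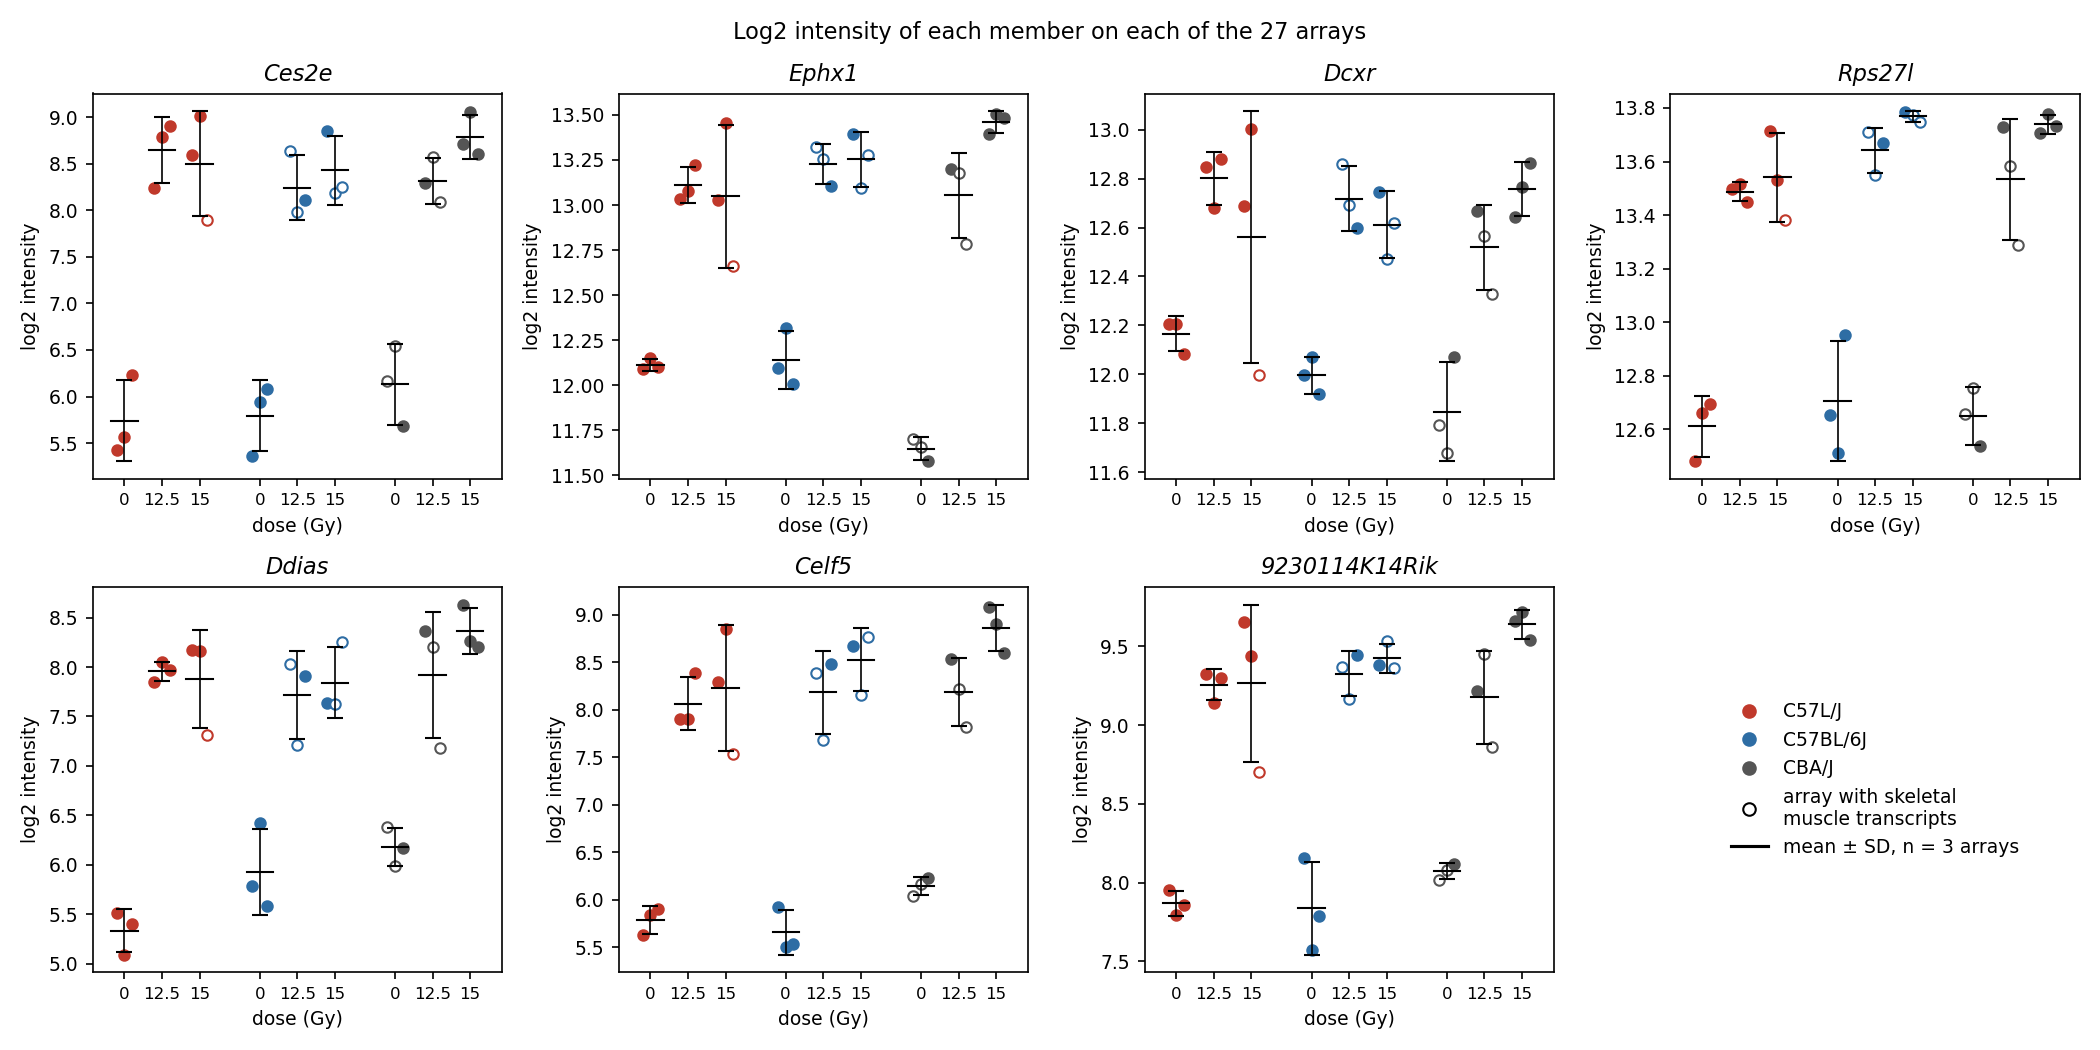
Log2 intensity of the 7 measured genes (1 panel each, with its own vertical scale) against dose in Gy, by strain, 1 point per array with the group mean and SD of 3 arrays. Open points are the 9 arrays with skeletal muscle transcripts. Irradiated arrays lie above the sham arrays for 6 genes, and for Dcxr 1 open point, C57L/J 15 Gy replicate 3 at 12.00, falls among them.

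Ces2e had the largest differences among the enzymes, between 2.18 and 2.91 on the log2 scale, or 4.55-fold to 7.51-fold in intensity. In C57L/J its log2 intensities were 5.42, 5.56 and 6.24 in sham lungs, 8.24, 8.79 and 8.91 at 12.5 Gy and 8.60, 9.01 and 7.89 at 15 Gy. In C57BL/6J they were 5.36, 5.94 and 6.08 in sham lungs, 8.64, 7.98 and 8.11 at 12.5 Gy and 8.85, 8.19 and 8.25 at 15 Gy. Irradiated and sham arrays were far apart in both C57 strains. In CBA/J they were 6.17, 6.54 and 5.68 in sham lungs, 8.29, 8.57 and 8.09 at 12.5 Gy and 8.71, 9.05 and 8.60 at 15 Gy. The difference from sham was 2.91 ± 0.32 (SE, n = 3 per group) at 12.5 Gy and 2.76 ± 0.41 at 15 Gy in C57L/J. It was 2.45 ± 0.30 and 2.63 ± 0.31 in C57BL/6J, and 2.18 ± 0.29 and 2.66 ± 0.28 in CBA/J. The sham intensities, from 41.1 to 93.1, lay below the median intensity of the arrays (127.6 to 167), and whether they stood above background was not measured. Without the arrays with muscle transcripts the mean of both doses over sham in CBA/J was 2.86 in place of 2.42, on 1 sham array.

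Ephx1 differed from sham most in CBA/J. The C57L/J arrays read 12.09, 12.15 and 12.10 in sham lungs, 13.03, 13.08 and 13.22 at 12.5 Gy and 13.03, 13.45 and 12.66 at 15 Gy. The C57BL/6J arrays read 12.10, 12.32 and 12.01 in sham lungs, 13.32, 13.25 and 13.11 at 12.5 Gy and 13.40, 13.09 and 13.27 at 15 Gy. The 3 C57L/J sham arrays were nearly equal, with an SD of 0.03. The CBA/J arrays read 11.70, 11.66 and 11.58 in sham lungs, 13.20, 13.18 and 12.78 at 12.5 Gy and 13.39, 13.51 and 13.48 at 15 Gy. CBA/J thus had the lowest sham values, and its values at 15 Gy, with a mean of 13.46 ± 0.06 (SD, n = 3), were the highest of the 9 group means. The difference from sham was 1.41 ± 0.14 (SE) at 12.5 Gy and 1.81 ± 0.05 at 15 Gy in CBA/J (2.65-fold and 3.51-fold). It was 1.00 ± 0.06 and 0.93 ± 0.23 in C57L/J, and 1.09 ± 0.11 and 1.11 ± 0.13 in C57BL/6J.

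Dcxr had the smallest differences, 1.32-fold to 1.88-fold. Its C57L/J values were 12.21, 12.21 and 12.08 in sham lungs, 12.85, 12.68 and 12.88 at 12.5 Gy and 12.69, 13.00 and 12.00 at 15 Gy. Its C57BL/6J values were 12.00, 12.07 and 11.92 in sham lungs, 12.86, 12.69 and 12.60 at 12.5 Gy and 12.75, 12.47 and 12.62 at 15 Gy. The third C57L/J array at 15 Gy lay below all 3 sham arrays of its strain. Its CBA/J values were 11.79, 11.68 and 12.07 in sham lungs, 12.67, 12.57 and 12.33 at 12.5 Gy and 12.64, 12.77 and 12.86 at 15 Gy. Groups overlapped only in C57L/J at 15 Gy, where the difference was 0.40 ± 0.30 (SE), and 0.68 ± 0.16 without the array with muscle transcripts (n = 2). Elsewhere the difference lay between 0.62 ± 0.09, in C57BL/6J at 15 Gy, and 0.91 ± 0.13, in CBA/J at 15 Gy.

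Rps27l was 1.84-fold to 2.13-fold higher in intensity after irradiation, with the narrowest range over strains and doses of the 7 genes. C57L/J arrays gave 12.48, 12.66 and 12.69 in sham lungs, 13.50, 13.52 and 13.45 at 12.5 Gy and 13.71, 13.53 and 13.38 at 15 Gy. C57BL/6J arrays gave 12.65, 12.51 and 12.95 in sham lungs, 13.71, 13.55 and 13.67 at 12.5 Gy and 13.79, 13.77 and 13.75 at 15 Gy. The C57BL/6J arrays at 15 Gy had an SD of 0.02. CBA/J arrays gave 12.66, 12.76 and 12.54 in sham lungs, 13.73, 13.58 and 13.29 at 12.5 Gy and 13.71, 13.78 and 13.73 at 15 Gy. The log2 difference from sham ran from 0.88 ± 0.07 (SE) in C57L/J at 12.5 Gy to 1.09 ± 0.07 in CBA/J at 15 Gy. The gene has 3 probe sets. All 3 were higher in all 6 comparisons without overlap, by 0.88 to 1.27. The parent gene Rps27, from a mean sham log2 intensity of 7.61, differed by 0.08 ± 0.27 (adjusted p = 0.890 by limma) over the strains. By strain it differed by -0.60 in C57L/J, 0.79 in C57BL/6J and 0.05 in CBA/J, so the mean near 0 does not show an unchanged gene. How far the probe sets of either copy bind the other was not tested.

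Ddias was 3.34-fold to 6.15-fold higher after irradiation. In C57L/J the values were 5.51, 5.09 and 5.40 in sham lungs, 7.85, 8.05 and 7.97 at 12.5 Gy and 8.17, 8.16 and 7.31 at 15 Gy. In C57BL/6J the values were 5.78, 6.42 and 5.58 in sham lungs, 8.03, 7.21 and 7.91 at 12.5 Gy and 7.64, 7.63 and 8.26 at 15 Gy. The second array of C57BL/6J at 12.5 Gy was the lowest irradiated one of that strain. In CBA/J the values were 6.38, 5.99 and 6.17 in sham lungs, 8.37, 8.20 and 7.18 at 12.5 Gy and 8.63, 8.26 and 8.20 at 15 Gy. The difference from sham was 2.62 ± 0.14 (SE) and 2.54 ± 0.31 in C57L/J at 12.5 and 15 Gy. It was 1.79 ± 0.36 and 1.91 ± 0.33 in C57BL/6J, and 1.74 ± 0.39 and 2.19 ± 0.18 in CBA/J. A second, dimmer probe set of Ddias was higher in all 6 comparisons too, by 1.81 to 2.75. Sham intensities of the probe set used were 34.1 to 85.6, again below the median of the arrays.

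Celf5 was 4.13-fold to 7.31-fold higher after irradiation, from sham intensities of 45.4 to 74.8. C57L/J values were 5.63, 5.84 and 5.90 in sham lungs, 7.90, 7.90 and 8.38 at 12.5 Gy and 8.29, 8.85 and 7.54 at 15 Gy. C57BL/6J values were 5.93, 5.50 and 5.54 in sham lungs, 8.39, 7.68 and 8.48 at 12.5 Gy and 8.67, 8.15 and 8.76 at 15 Gy. Both C57 strains had 1 irradiated array, each with muscle transcripts, below the others. CBA/J values were 6.04, 6.16 and 6.23 in sham lungs, 8.54, 8.21 and 7.82 at 12.5 Gy and 9.08, 8.90 and 8.60 at 15 Gy. The difference from sham was 2.27 ± 0.18 (SE) and 2.44 ± 0.39 in C57L/J at 12.5 and 15 Gy, and 2.53 ± 0.29 and 2.87 ± 0.23 in C57BL/6J. In CBA/J it was 2.05 ± 0.21 and 2.72 ± 0.15, with no overlap between the irradiated groups of that strain.

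The long noncoding RNA 9230114K14Rik was 2.15-fold to 3.01-fold higher after irradiation. It read in C57L/J 7.95, 7.80 and 7.86 in sham lungs, 9.32, 9.14 and 9.30 at 12.5 Gy and 9.66, 9.44 and 8.70 at 15 Gy. It read in C57BL/6J 8.16, 7.57 and 7.79 in sham lungs, 9.37, 9.17 and 9.45 at 12.5 Gy and 9.38, 9.53 and 9.37 at 15 Gy. The sham groups of both strains overlapped. It read in CBA/J 8.02, 8.08 and 8.12 in sham lungs, 9.22, 9.45 and 8.86 at 12.5 Gy and 9.66, 9.72 and 9.54 at 15 Gy. The log2 difference from sham was smallest in CBA/J at 12.5 Gy, 1.11 ± 0.17 (SE), and largest in C57BL/6J at 15 Gy, 1.59 ± 0.18.

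**Figure D2:**
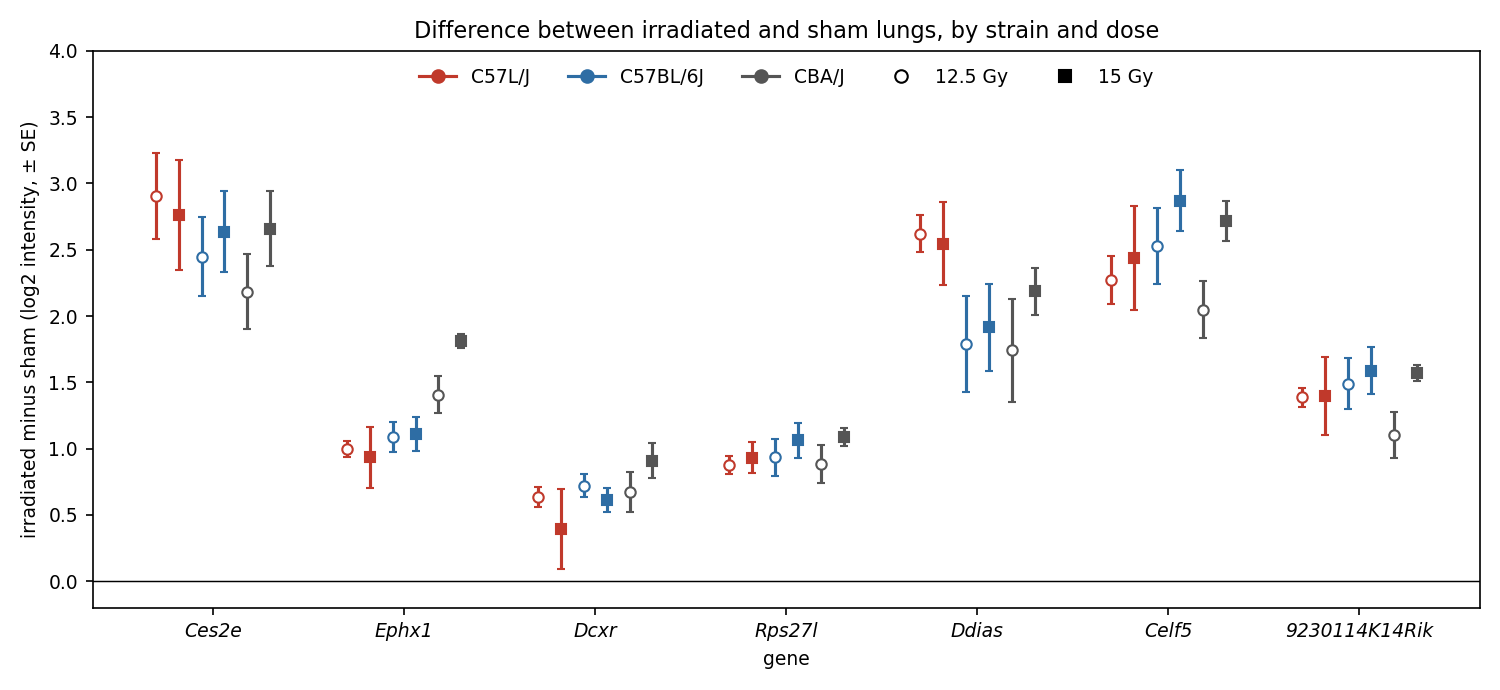
Difference between the mean log2 intensity of irradiated and sham lungs (± SE, n = 3 per group) for the 7 measured genes, by strain (colour) and dose (open circles 12.5 Gy, squares 15 Gy). Ces2e, Ddias and Celf5 lie between 1.74 and 2.91, and Dcxr between 0.40 and 0.91.

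Within their groups, 2 arrays were low throughout. C57L/J 15 Gy replicate 3 and CBA/J 12.5 Gy replicate 3, the 2 arrays with the most muscle transcripts (7.45 and 8.39 above the median array), were the lowest of their group for all 7 genes. Their mean deviation from the group means was -0.51 and -0.34. C57BL/6J 12.5 Gy replicate 2 and C57BL/6J 15 Gy replicate 2 (5.28 and 5.97 above) were the lowest for 5 of 7 genes each (mean deviation -0.22 and -0.15). C57BL/6J 15 Gy replicate 3 (5.33 above) was the lowest for 2 of 7 (0.06). C57BL/6J 12.5 Gy replicate 1, with the smallest excess (2.46), and CBA/J 12.5 Gy replicate 2 (5.66) were the lowest for 0 of 7 (0.18 and 0.15). CBA/J sham replicates 1 and 2 (3.43 and 4.17 above) were the lowest for 2 of 7 each (0.01 and 0.03). Without the 9 arrays with muscle transcripts the differences from sham lay between 2.31 and 3.11 for Ces2e, 2.27 and 3.01 for Celf5, 1.71 and 2.83 for Ddias, and 1.10 and 1.68 for 9230114K14Rik. They lay between 0.96 and 1.88 for Ephx1, 0.88 and 1.20 for Rps27l, and 0.60 and 0.75 for Dcxr. The part of muscle transcripts in the values of the 7 genes was not tested.

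The step from 12.5 to 15 Gy was compared next, because both doses lie in the range over which lethal lung injury was studied. No gene of the set was called, at a Benjamini-Hochberg adjusted p under 0.05, in any strain (0 of 21 tests, limma) or over the 3 strains together (0 of 7). In the same comparisons, with all arrays, 0% of all 18194 genes were called. At an unadjusted p under 0.05 there were 573, 576 and 1250 genes in C57L/J, C57BL/6J and CBA/J and 809 over the strains, and the random variance t test of the methods called 0 genes in each strain too (571, 578 and 1249 unadjusted).

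In CBA/J all 7 genes were higher at 15 than at 12.5 Gy, by 0.21 to 0.67, against 52.1% of all genes. Celf5 differed by 0.67 ± 0.24 (SE; 95% interval 0.08 to 1.26; adjusted p = 0.694, limma), Ephx1 by 0.41 ± 0.16 (0.0052 to 0.81) and 9230114K14Rik by 0.46 ± 0.19 (0.0016 to 0.93), each at the same adjusted p and at an unadjusted p under 0.05. Ces2e differed by 0.47 ± 0.20, Ddias by 0.44 ± 0.35, Dcxr by 0.24 ± 0.15 and Rps27l by 0.21 ± 0.16. For 4 of the 7 (Ces2e, Ephx1, Celf5 and 9230114K14Rik) all arrays at 15 Gy lay above all at 12.5 Gy, against 8.52% of all genes. At 12.5 Gy 2 of the 3 CBA/J arrays carried muscle transcripts, and at 15 Gy none. Without those 2 arrays, on 1 array at 12.5 Gy assumed to vary like the other groups, the differences were 0.32 for Celf5, 0.26 for Ephx1, 0.42 for 9230114K14Rik and 0.50 for Ces2e, but 0.09 for Dcxr, 0.01 for Rps27l and -0.0045 for Ddias.

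In the C57 strains, with all arrays, the intervals spanned 0 for every gene. C57BL/6J had 6 of 7 genes higher at 15 Gy, against 52.9% of all genes, with differences of -0.11 (Dcxr) to 0.35 (Celf5). C57L/J had 3 of 7, against 49.4% of all genes, with -0.24 (Dcxr) to 0.17 (Celf5). These counts changed without the muscle-bearing arrays. Without C57L/J 15 Gy replicate 3 all 7 genes were higher at 15 Gy in C57L/J, by 0.04 (Dcxr) to 0.51 (Celf5), against 50.2% of all genes. Celf5 was then the single one of the 7 at an unadjusted p under 0.05 (limma), as were 598 of all genes. In C57L/J 0 genes were called. Calls over all genes in this refit are not given for C57BL/6J and CBA/J, which have groups of 1 array. In C57BL/6J, left with 1 array per dose, 5 of 7 were higher, against 54.4% of all genes. The differences there were -0.27 (Ddias) to 0.74 (Ces2e, which differed by 0.19 with all arrays). Over all arrays, groups did not overlap for 1 gene in C57BL/6J, Rps27l, with 13.77 ± 0.02 (SD, n = 3) at 15 Gy and 13.64 ± 0.08 at 12.5 Gy, against 3.9% of all genes with 15 Gy higher. They overlapped for all 7 in C57L/J, where the background was 4.35%. Over the strains together Celf5 was 0.39 ± 0.16 higher at 15 Gy (SE, 9 arrays per dose; 95% interval 0.06 to 0.73; adjusted p = 0.999, limma), the single unadjusted p under 0.05, and the other 6 genes differed by -0.04 (Dcxr) to 0.19 (9230114K14Rik). Whether the step differed between strains was not tested. The intervals leave room for a step of up to 1.31 in a single strain, as for Ddias in CBA/J.

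**Figure D3:**
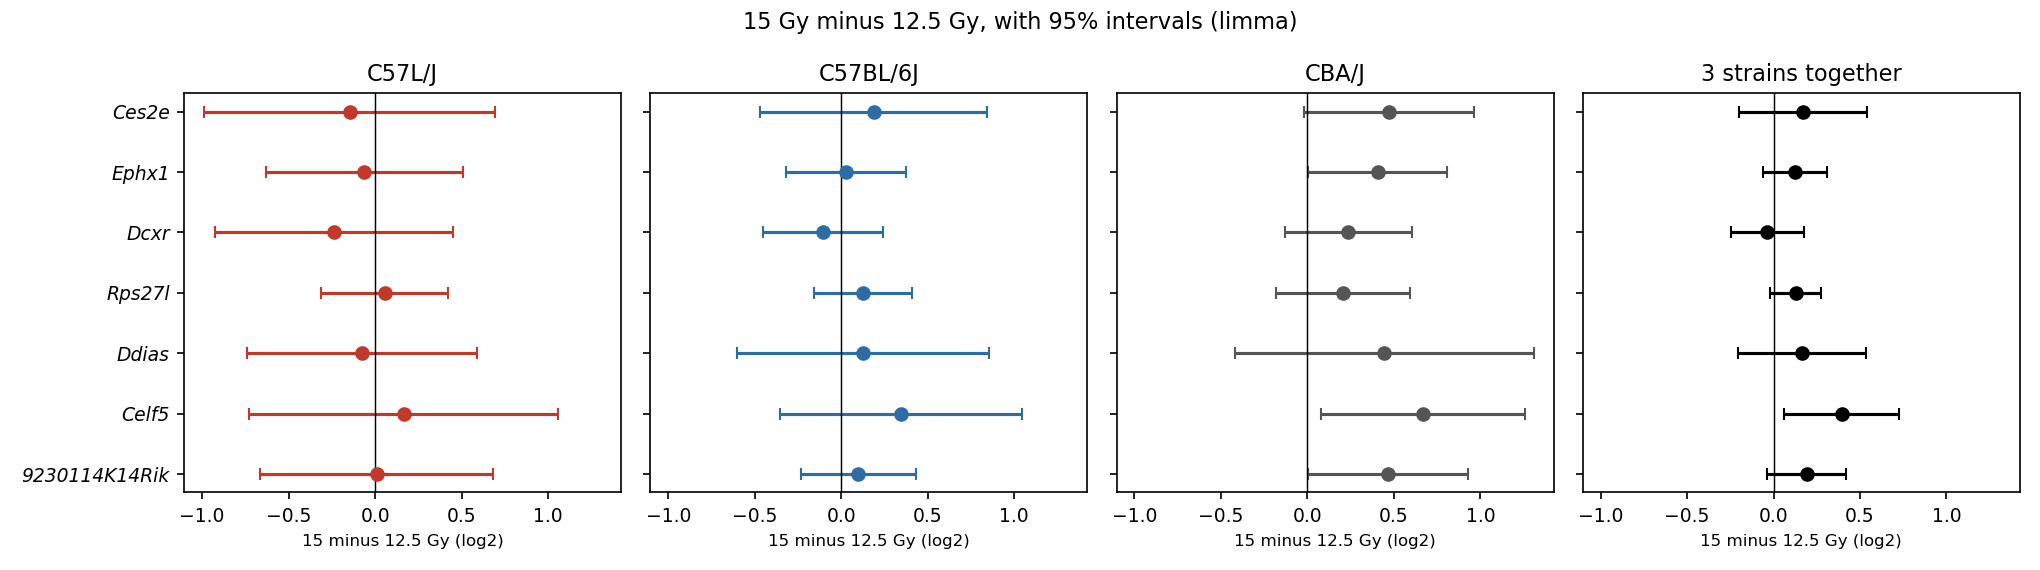
Difference in log2 intensity between 15 and 12.5 Gy for the 7 measured genes, with 95% intervals of limma, in each strain (3 arrays per dose) and over the 3 strains (9 per dose). In CBA/J all 7 points lie to the right of 0, between 0.21 and 0.67. In C57BL/6J 6 of 7 do, and in C57L/J 3 of 7. Without the muscle-bearing arrays, not drawn, 6 of 7 in CBA/J, 5 of 7 in C57BL/6J and 7 of 7 in C57L/J are above 0. Of all genes 46.0%, 54.4% and 50.2% are, in the same order. The CBA/J and C57BL/6J values then rest on 1 array at 12.5 Gy.

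Sham lungs of different strains were then compared, for the level from which each gene started. Of 21 tests 0 passed an adjusted p under 0.05 (limma), and 5 had an unadjusted p under 0.05, all with CBA/J. At the same unadjusted p there were 1579 of all genes between C57BL/6J and C57L/J, 2889 between CBA/J and C57L/J and 2069 between CBA/J and C57BL/6J. Of all genes 0.17% were called between C57BL/6J and C57L/J, 1.52% between CBA/J and C57L/J and 1.09% between CBA/J and C57BL/6J, and by the random variance t test 30, 271 and 198 genes and 0 of the 7. Ephx1 in CBA/J stood at 11.65 ± 0.06 (SD, n = 3) against 12.11 ± 0.03 in C57L/J and 12.14 ± 0.16 in C57BL/6J. The difference was -0.47 ± 0.09 from C57L/J (SE; 95% interval -0.70 to -0.23; adjusted p = 0.105, limma) and -0.49 ± 0.13 from C57BL/6J (adjusted p = 0.227, limma). The 3 CBA/J arrays lay below all 6 others. Of these 3, replicates 1 and 2 carried muscle transcripts and read 11.70 and 11.66, while replicate 3, without them, read 11.58. Without the muscle-bearing arrays the differences were -0.54 and -0.56, on that 1 CBA/J array. The difference from C57L/J passed the threshold when low genes were left out, when the floor on intensity was 32 or when the prior followed intensity, and over all alternatives its adjusted p ran from 0.0187 to 0.352 (limma).

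Celf5 in CBA/J sham lungs stood at 6.14 ± 0.09 (SD, n = 3) against 5.79 ± 0.15 in C57L/J and 5.66 ± 0.23 in C57BL/6J. The difference was 0.35 ± 0.12 from C57L/J (SE; adjusted p = 0.260) and 0.49 ± 0.16 from C57BL/6J (adjusted p = 0.326, limma). The CBA/J arrays lay above all 6 others, and on the 1 CBA/J array without muscle transcripts the differences were 0.44 and 0.57. Ddias, on the probe set used, stood at 6.18 ± 0.19 (SD, n = 3) in CBA/J, 5.93 ± 0.44 in C57BL/6J and 5.34 ± 0.22 in C57L/J, and CBA/J exceeded C57L/J by 0.84 ± 0.17 (SE; adjusted p = 0.103, limma). The second probe set ordered the strains otherwise, with 3.98 ± 1.58 in CBA/J, 5.26 ± 0.81 in C57BL/6J and 4.85 ± 0.23 in C57L/J. With the mean of both probe sets the difference from C57L/J was -0.01. The sham order of Ddias thus depended on the probe set. The other 4 genes differed between sham groups by at most 0.39. Groups did not overlap for 2 of 7 genes between the C57 strains (background 15.1%), for 5 of 7 between CBA/J and C57L/J (24.3%) and for 2 of 7 between CBA/J and C57BL/6J (17.6%).

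The size of the rise, taken as the mean of both doses minus sham, was compared between strains in 1 fit over all 27 arrays. Again 0 of 21 tests and 0% of all genes passed an adjusted p under 0.05 (limma), with 842, 855 and 1069 genes at an unadjusted p under 0.05 in the 3 pairs of strains. Ephx1 had both lowest unadjusted values of the set. Its rise was 1.61 in CBA/J, 1.10 in C57BL/6J and 0.97 in C57L/J. CBA/J exceeded C57L/J by 0.64 ± 0.19 (SE; 95% interval 0.25 to 1.03; adjusted p = 0.655, limma) and C57BL/6J by 0.51 ± 0.19 (0.12 to 0.90; adjusted p = 0.725, limma). Without the arrays with muscle transcripts these values were 0.69 and 0.64, with the CBA/J rise resting on 1 sham array and 1 array at 12.5 Gy. The same sham arrays enter this contrast and the sham comparison above, so the 2 results are not independent. After irradiation the strains overlapped, with Ephx1 from 12.66 to 13.45 in C57L/J, 13.09 to 13.40 in C57BL/6J and 12.78 to 13.51 in CBA/J.

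For the other genes the intervals of the difference in rise spanned 0. The rise of Ddias was 2.58 in C57L/J, 1.85 in C57BL/6J and 1.96 in CBA/J, and the C57BL/6J value was -0.73 ± 0.37 apart from that of C57L/J (SE; 95% interval -1.51 to 0.05; adjusted p = 0.99996, limma). Celf5 had 2.36, 2.70 and 2.38 in the same order, and Ces2e 2.83, 2.54 and 2.42. The narrowest intervals belonged to Rps27l, whose rises of 0.90, 1.00 and 0.99 differed between strains by at most 0.10, with limits from -0.32 to 0.41.

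**Figure D4:**
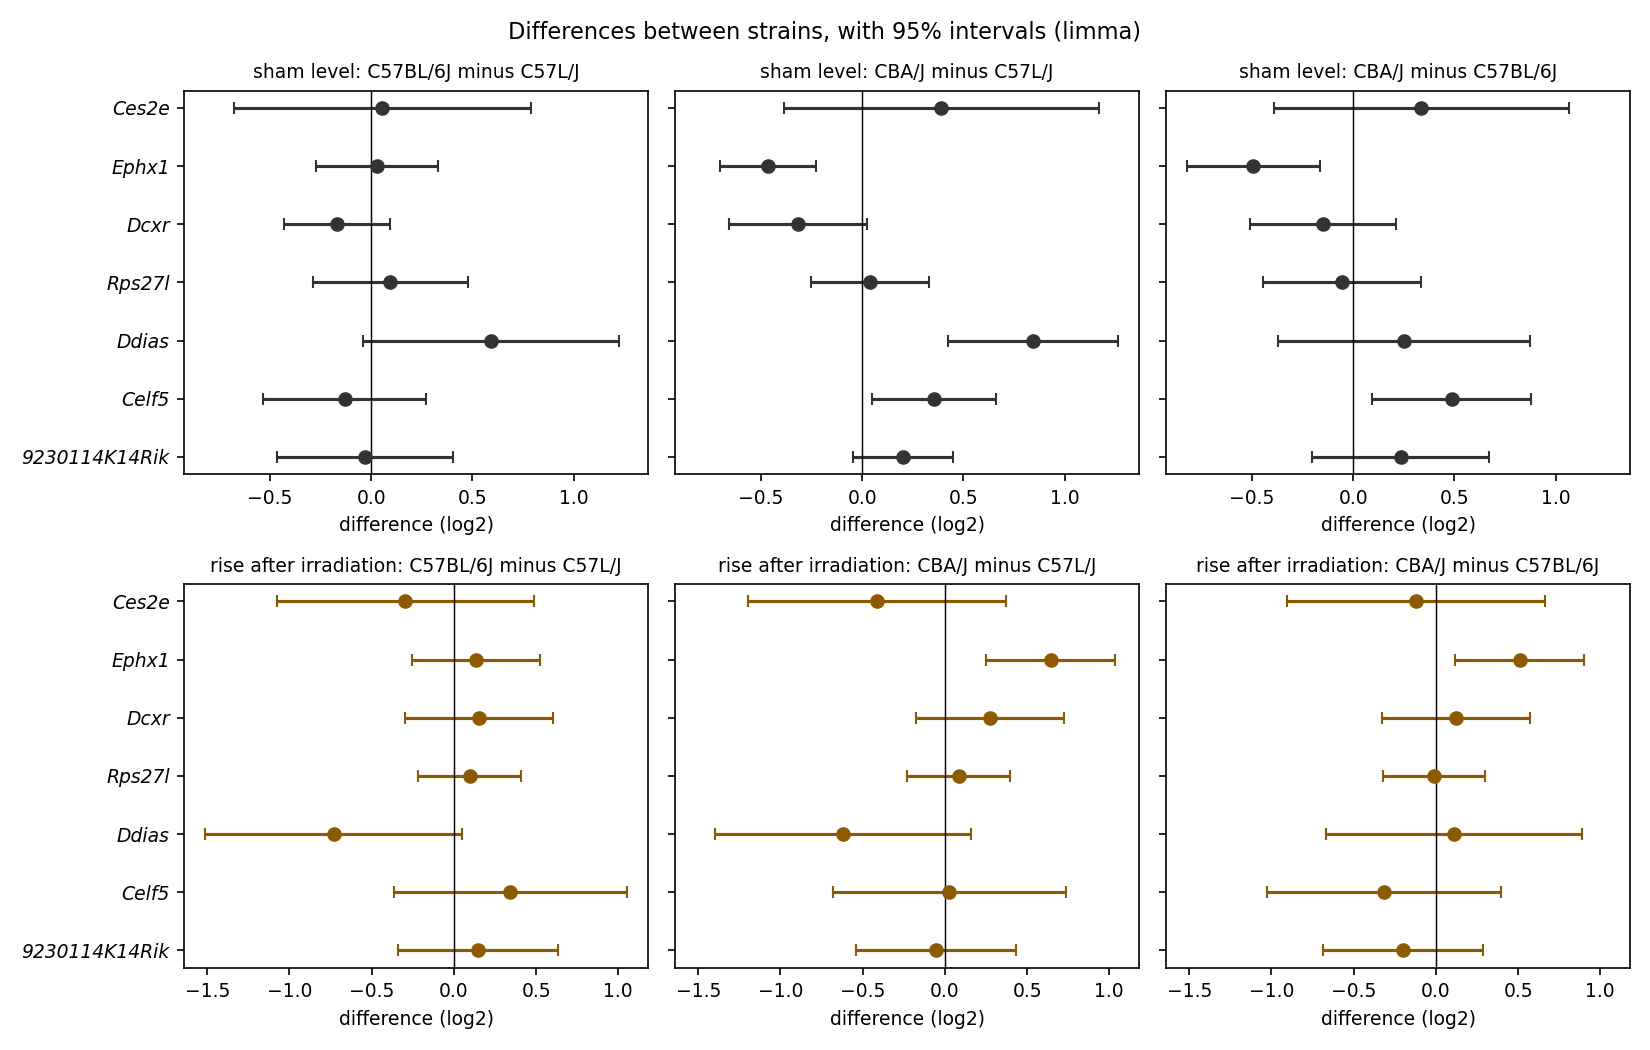
Differences between strains in log2 intensity of sham lungs (upper row, 3 arrays per strain) and in the rise after irradiation (lower row, fit over 27 arrays) for the 7 measured genes, with 95% intervals of limma. For Ephx1 the interval lies below 0 in the upper row and above 0 in the lower row in both comparisons of CBA/J with another strain.

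The pathways to which these genes belong were described through 12 lists of their other members, by the contrast of irradiated with sham lungs over the 3 strains (limma, all 27 arrays). Of all genes 5.83% rose and 8.49% fell at an adjusted p under 0.05, with a median difference of -0.01. Among p53 target genes, 22 of 39 rose and 2 fell, with a median of 0.44. They were led by Cdkn1a, the inhibitor of cell cycle kinases (3.16 ± 0.10, SE, or 8.95-fold), Eda2r, a death receptor of the TNF family (2.35 ± 0.15), Ccng1, cyclin G1 (2.22 ± 0.06), and Phlda3, a repressor of AKT (1.99 ± 0.07), with adjusted p-values of at most 2.19e-09. In the single strains 14, 16 and 15 of the 39 rose in C57L/J, C57BL/6J and CBA/J, where the background was 0.742%, 1.02% and 1.77%, and 0 fell, against 1.26%, 2.51% and 2.32% of all genes. Without the arrays with muscle transcripts 21 of 39 rose and 0 fell.

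Relatives of the enzymes are set beside the 5.83% of all genes that rose and the 8.49% that fell. Of 12 other carboxylesterases 3 rose and 0 fell (median 0.10): Ces1g (0.89 ± 0.24, adjusted p = 0.0171), Ces2b (0.51 ± 0.14, adjusted p = 0.0171) and Ces2g (0.33 ± 0.11, adjusted p = 0.0462, limma). The call of Ces2g was lost in 20 of 27 fits that left out 1 array, and that of Ces1g without the muscle-bearing arrays (adjusted p = 0.132). The Ces1g difference was 2.14 in CBA/J, 0.37 in C57L/J and 0.17 in C57BL/6J. The other 9 were not called, with differences of -0.52 for Ces1e, -0.46 for Ces4a, -0.41 for Ces1f, -0.23 for Ces5a, -0.07 for Ces1d, 0.04 for Ces1h, 0.16 for Ces2a, 0.74 for Ces2f and 0.93 for Ces1c. The list around Ephx1 held 5 genes: Ephx2, Ephx3, Ephx4, the cytochrome b5 gene Cyb5a and the cytochrome b5 reductase gene Cyb5r3. None was called (median -0.00142), with Ephx2, the soluble epoxide hydrolase, at 0.45 ± 0.41 (adjusted p = 0.519, limma).

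Ephx1 and carboxylesterases are known targets of several xenobiotic sensors, whose lists are set beside the same shares of all genes. Of 22 NRF2 target genes 11 rose and 1 fell (median 0.32), led by Slc7a11, the cystine transporter (1.33 ± 0.22), Gsta2, a glutathione transferase (0.88 ± 0.15), Gpx2, a glutathione peroxidase (0.79 ± 0.17), and Srxn1, sulfiredoxin (0.75 ± 0.15), with adjusted p-values of at most 0.00248. By strain 12 of the 22 rose in CBA/J, 1 in C57BL/6J and 0 in C57L/J, while the difference between strains was called for 0 of all genes. Without the muscle-bearing arrays, 2 of which were CBA/J sham arrays, 8 of the 22 rose and 2 fell. The list for the receptors CAR and PXR held 16 genes, among them the receptor genes Nr1i3 and Nr1i2 themselves. Mean sham log2 intensities in it were as low as 1.98 (Cyp3a25) and 3.57 (Nr1i3). Of the 16 genes 0 fell (median -0.06) and 1 rose, the aldehyde dehydrogenase gene Aldh1a7 (0.33 ± 0.08, adjusted p = 0.00669, limma). Its call was lost without the muscle-bearing arrays (adjusted p = 0.0810). Of 7 aryl hydrocarbon receptor targets Nfe2l2, which encodes NRF2 itself, rose (0.31 ± 0.07) and Cyp1a1, a P450 enzyme, fell (-1.61 ± 0.33, adjusted p = 0.00185, and 0.212 without the muscle-bearing arrays), with a median of 0.10.

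Around Dcxr, 2 of 10 glucuronate and polyol pathway genes rose and 0 fell (median 0.14), the aldo-keto reductase gene Akr1b8 (0.44 ± 0.11, adjusted p = 0.0121) and Xylb, xylulokinase (0.39 ± 0.11, adjusted p = 0.0154), and neither was called without the muscle-bearing arrays (adjusted p = 0.177 and 0.311, limma). Of 20 other small ribosomal subunit proteins 1 rose, Rps19 (0.28 ± 0.05, adjusted p = 0.000855, limma), and 0 fell (median -0.00676). Rps16, not called, had a mean sham log2 intensity of 0.24, next to the floor. Of 5 other CELF genes Celf6 rose (1.02 ± 0.28, adjusted p = 0.0173, from a mean sham log2 intensity of 3.61) and Celf1 fell (-0.15 ± 0.04, adjusted p = 0.0250), while Celf2 (-0.14), Celf3 (-0.23) and Celf4 (0.09) were not called (median -0.14). The call of Celf6 was lost without C57L/J sham replicate 2 (adjusted p = 0.0504), and that of Celf1 without C57L/J sham replicate 2, CBA/J sham replicate 1 or C57BL/6J sham replicate 2, and without the muscle-bearing arrays (0.134). Of 10 apoptosis inhibitors, the company of Ddias, 0 rose and 2 fell (median -0.10), Birc5, survivin, which is also a mitosis gene (-1.90 ± 0.37, adjusted p = 0.00144), and Birc3 (-0.25 ± 0.06, adjusted p = 0.0103, and 0.199 without the muscle-bearing arrays).

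Gdf15 is known to answer both p53 and the integrated stress response, and its receptor is Gfral, which had no probe set under its symbol. Of 18 integrated stress response genes 3 rose and 1 fell (median -8.58e-05). Ddit4, an inhibitor of mTORC1, rose by 1.09 ± 0.12 (adjusted p = 3.39e-06), Psat1, of serine synthesis, by 0.66 ± 0.19 (adjusted p = 0.0216) and Asns, asparagine synthetase, by 0.33 ± 0.08 (adjusted p = 0.0119, limma). The factor Atf4 fell by 0.18 ± 0.06 (adjusted p = 0.0429), a call lost in 21 of 27 fits that left out 1 array. That of Psat1 was lost without C57L/J sham replicate 3 (adjusted p = 0.0535) and without the muscle-bearing arrays (0.0739). Of 12 related ligands and receptor genes 0 rose and 1 fell (median -0.10), Tgfb1 (-0.49 ± 0.15, adjusted p = 0.0294), whose call was lost in 5 of the 27 fits, each without 1 sham array (C57L/J replicates 2 and 3, CBA/J replicate 1, C57BL/6J replicates 1 and 3), and without the muscle-bearing arrays (0.326).

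**Figure D5:**
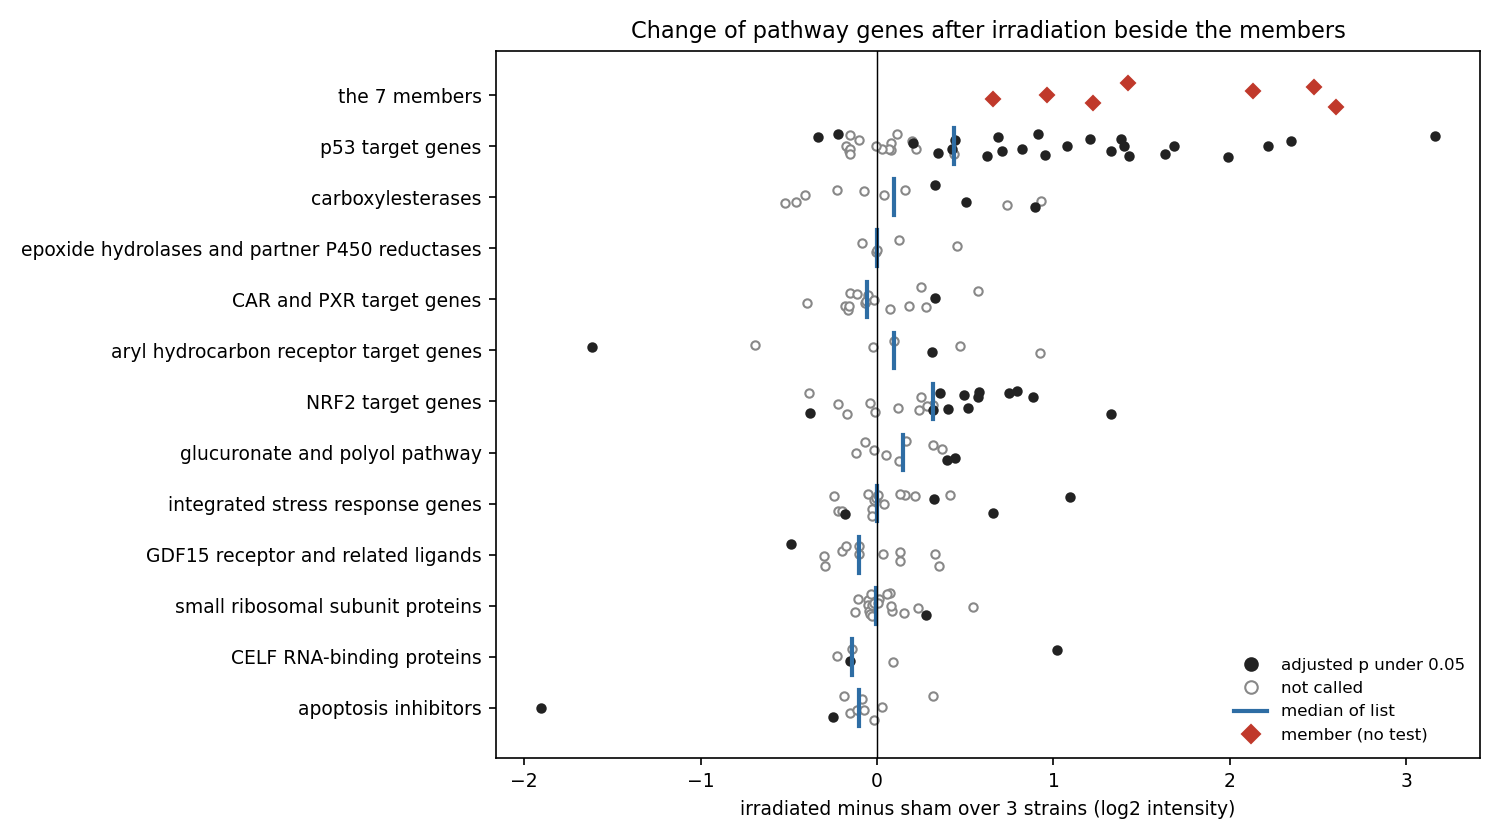
Difference in log2 intensity between irradiated and sham lungs over the 3 strains for the genes of 12 lists (1 point per gene; filled, adjusted p under 0.05 by limma; vertical bar, median of the list) and for the 7 measured genes of the set (diamonds, no test). The p53 targets reach 3.16 with a median of 0.44, and the median of all other lists lies between -0.14 and 0.32. The list labelled with P450 reductases holds Ephx2, Ephx3, Ephx4, Cyb5a and Cyb5r3, and thus no P450 reductase.

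Markers of cell types moved with irradiation as well, and their part in the rises was not tested. Of 8 club and airway cell markers, which stand for cells rich in Ephx1 and carboxylesterases, Cldn10 rose (0.59 ± 0.11, adjusted p = 0.000804) and the list had a median of 0.00309. The mean log2 intensity of these 8 ranged from 12.8 to 13.6 over the sham arrays and from 12.9 to 13.7 over the irradiated ones. Of 6 B cell markers 5 fell (median -1.80), with a mean log2 intensity of 8.60 to 9.41 over sham and 6.32 to 8.55 over irradiated arrays. Of 9 endothelial markers 6 fell (median -0.45), with means of 11.7 to 12.4 and 10.9 to 12.0. Without the muscle-bearing arrays 5 of 6 B cell markers fell (median -1.77), and of the 9 endothelial markers 2 fell and 1 rose (median -0.19). In the same fit 2 of 6 thymocyte and lymph node markers fell, 1 of 7 squamous markers rose, and the skeletal muscle markers had a median of -0.28 with none called. Of these 6 thymocyte and lymph node markers 1 fell with all arrays (median -0.35). With all arrays no marker was called in the lists of type I cells (median -0.13), type II cells (-0.11), alveolar macrophages (0.10), skeletal muscle (1.38), squamous epithelium (0.87), thyroid (0.20), fat (0.76), heart muscle (0.00518) or liver and gut (0.05).

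The genes whose profile over the 27 arrays was most like the mean profile of the 7 were, of 11834 ranked by Pearson's r, Exoc4, a subunit of the exocyst (r = 0.98), Cdkn1a (0.98), Phlda3 (0.98), Slc19a2, a thiamine transporter (0.98), Zmat3, an RNA-binding protein (0.97), Ei24 (0.97), Dglucy, D-glutamate cyclase (0.97), Ccng1 (0.96), Gas6, a ligand of the TAM receptors (0.96), and Commd3 (0.96). These values describe 27 arrays that share 2 clusters, sham and irradiated, and carry no p. For single genes the nearest were Phlda3 and Cdkn1a for Ces2e (r = 0.98 and 0.97), Zmat3 and Exoc4 for Ephx1 (0.96 and 0.96), Slc19a2 and Commd3 for Rps27l (0.97 and 0.96), Ei24 and Cdkn1a for Ddias (0.96 and 0.95), Ccng1 and Cdkn1a for Celf5 (0.96 and 0.96), and Commd3 and Slc19a2 for 9230114K14Rik (0.97 and 0.97). For Dcxr the nearest were Gas6 and Sulf2, a heparan sulfate sulfatase, at lower values of 0.93 and 0.92, and its r with Ephx1 was 0.92. Among themselves the 7 genes correlated between 0.81 (Dcxr with Ddias) and 0.97 (Celf5 with 9230114K14Rik).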

How the data were processed

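Per the labels and the methods, lung RNA was measured on 27 Affymetrix Mouse Genome arrays, 3 per group, hybridised in a single batch. The authors deposited linear intensities for 45101 probe sets. Their notes list the program Affymetrix Expression Console 1.1. Which algorithm summarised the probes was not given there. The 2% trimmed mean was 500 on every array, so no further scaling was applied. Here intensities were floored at 1 (37 to 111 values per array), taken to log2, and the brightest of the probe sets with 1 symbol (34958; 932 with several and 9211 with none were left out) stood for each gene. A total of 34754 were matched to a current RefSeq symbol. The number of arrays limits the precision.

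Pairs of groups were tested with limma 3.58.1 (lmFit and eBayes, R 4.3.3) on the arrays of both groups, and contrasts over strains on all 27, with Benjamini-Hochberg adjustment over 18194 genes. The genes and lists were chosen with earlier results of these data known. Genes were named as members, as relatives of members, as up to 4 called genes with the largest change per list, and as the 10 genes (2 per member) with the highest r among genes with a mean log2 of at least 7. Cldn10, Sftpc and Scgb1a1 were named after their values were seen. An array was counted as carrying muscle transcripts when its marker mean lay over 2 above the median array. Alternatives were another test or prior, one fit over all arrays, quantile normalization, median-centring, a floor of 32, a filter on low values (highest group mean of at least 7), the mean of probe sets, the replicate block, leaving out single or muscle-bearing arrays and, added after the data were seen, the muscle mean as a covariate. The scripts were tested on simulated data.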

Additional observations from a re-analysis of the deposited data

How the results depend on the processing

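The counts of called genes of the set stayed at 0 under every alternative for the step from 12.5 to 15 Gy, within strains and over strains, and for the difference in rise, with each array left out in turn included (0 to 0). Between sham lungs the count of 0 became 1 with an intensity trend and robust prior, 1 with a floor of 32 and 2 with the filter on low values. Ephx1 was called in all 3 and Ddias with the filter (adjusted p = 0.0390), both for CBA/J against C57L/J. The number of list genes called over strains was 43 to 59 under all alternatives and 49 to 58 with single arrays left out. Of the rises of the 7 genes, 355 of 357 refits stayed within the spread between replicates, and 2 moved, both without the muscle-bearing arrays in CBA/J (Ces2e 2.86, Rps27l 1.20).

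Some differences changed sign. The mean of probe sets turned Ddias in sham CBA/J against C57L/J from 0.84, the largest sham difference, to -0.015 and against C57BL/6J to -0.51. Median-centring turned Ephx1 in sham C57BL/6J against C57L/J to -0.023, and single arrays left out gave -0.062 to 0.094, negative without C57BL/6J sham replicate 2. Leaving out the muscle-bearing arrays turned the step from 12.5 to 15 Gy of Ddias from 0.44 to -0.0045 in CBA/J and -0.021 over strains, and that of Dcxr over strains to 0.094, while single arrays left out gave Dcxr -0.11 to 0.059, positive only without C57L/J 15 Gy replicate 3. The causes were not tested. Of 902 refits of the 44 differences given as ranges 71 changed sign, and 0 were called (lowest adjusted p = 0.153, limma).

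A pairing of arrays by replicate number was looked for through correlations of same-numbered deviations. In 0 of 36 pairs of groups did every correlation exceed 0.1. This cut cannot exclude pairing, since between CBA/J sham and CBA/J 12.5 Gy the correlations ran from 0.08 to 0.25. With the replicate number as a block, 0 genes of the set were called in any comparison, 22 p53 targets rose as without it, and 13 NRF2 targets rose in place of 11. With 3 arrays per group the intervals of single comparisons remained wide, and 3 of the 7 genes had sham intensities below the median of the arrays.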
